A study of Saccharomyces cerevisiae with 12 samples.

Results

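The zinc uptake genes of budding yeast were followed through the response to DTT in 4 strains. They are *ZAP1*, *ZRT1*, *ZRT2*, *ZRT3*, *ZPS1*, and *ADH4*, chosen by gene symbol in the annotation of the array elements, and each of the 6 genes matched 1 of the 6024 elements. WT cells and the deletion strains Δ*ire1*, Δ*gcn4*, and Δ*gcn2*, grown in rich medium (YPD) to midlog phase, were treated with 2 mM DTT, a reducing agent that disturbs disulfide formation in the endoplasmic reticulum (ER), for 30 min or left untreated. Each two-color array compared treated with untreated cells of 1 strain, and each strain was measured on 3 arrays, which the study calls independent experiments. Every value is therefore a log2 ratio of treated over untreated cells, positive where the mRNA was more abundant after DTT. Such a ratio shows a response within a strain and does not show the level of an mRNA or how untreated strains differ. *GCN4* and *GCN2* were each replaced by a cassette made by PCR, and the number of clones behind each strain is not given in the sources used here.

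Zap1p is the activator through which yeast responds to zinc shortage. It binds zinc-responsive elements in promoters when zinc is scarce and loses activity when zinc is plentiful, and its own gene is among its targets. Zrt1p and Zrt2p import zinc across the plasma membrane with high and low affinity, Zrt3p releases zinc from the vacuole, and *ZPS1* and *ADH4*, which encode a cell surface protein and an alcohol dehydrogenase, are strongly transcribed in zinc-limited cells. The deletions remove parts of the pathways that answer ER stress: Ire1p senses unfolded protein in the ER and splices *HAC1* mRNA, Gcn2p is a kinase that raises translation of *GCN4* mRNA, and Gcn4p activates genes of amino acid synthesis. The study reports that Gcn4p and Gcn2p are also needed for many genes to be induced during ER stress.

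The members did not respond as 1 group. *ZRT1* and *ZRT2* fell after DTT in all 4 strains, to between 0.401 and 0.588 of the untreated level. *ZAP1* rose in WT, Δ*gcn4*, and Δ*gcn2* and fell in Δ*ire1*, and *ZPS1* rose in Δ*gcn4* and Δ*gcn2* and fell in Δ*ire1*, with no passing change in WT. The fall of *ZAP1* in Δ*ire1* passed the test in only 3 of 8 alternative fits, and its rise in WT in 6 of 8. *ADH4* fell slightly in WT and Δ*ire1*, and *ZRT3* passed the test in no strain. A gene is said to rise or fall, or to be higher or lower, where the limma fit over all 12 arrays gave an adjusted p under 0.05.

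Changes that passed the test were common on the arrays. In WT, 1 member was higher and 3 were lower, where 18.4% of all elements were higher and 39.0% lower. In Δ*ire1*, 5 members were lower and 0 higher, where 35.6% of all elements were lower and 12.2% higher. At an unadjusted p under 0.05 these counts of members were the same, and the shares of all elements at that limit were not determined. In Δ*gcn4*, 2 members were higher and 2 lower, against 15.8% and 38.7% of all elements, and in Δ*gcn2* again 2 and 2, against 25.2% and 37.8%. The median log2 ratio of the members was −0.24 for WT, −0.53 for Δ*ire1*, −0.08 for Δ*gcn4*, and −0.15 for Δ*gcn2*, and that of all elements was −0.15, −0.14, −0.16, and −0.11 in the same order.

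The deposited arrays are thus centered somewhat below 0. Centering each array on its own median raised a strain's values by 0.105 to 0.161 on the log2 scale. With that centering, the shares of all elements that were higher and lower were 27.6% and 28.4% for WT, 21.9% and 23.2% for Δ*ire1*, 25.6% and 26.4% for Δ*gcn4*, and 31.7% and 30.8% for Δ*gcn2*. Of the members, 2 were then higher and 2 lower for each of WT, Δ*gcn4*, and Δ*gcn2*, and 3 were lower for Δ*ire1* and 0 higher. Correlations over all elements between arrays of a strain ranged from 0.642, in Δ*ire1*, to 0.943, in Δ*gcn2*. The element for *GCN4* stood at −0.83 ± 0.15 in Δ*gcn4* (SD, n = 3 arrays) and that for *GCN2* at 0.51 ± 0.37 in Δ*gcn2*, and both passed the test there. *GCN4* was lower in all 4 strains, as were 19.3% of all elements. Neither gene passed the test for a difference between its deletion strain and WT (adjusted p = 0.401 for *GCN4* and 0.497 for *GCN2*, from limma). A ratio within a strain does not check a deletion, and no element was named for *IRE1* in the annotation used here.

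**Figure D1:**
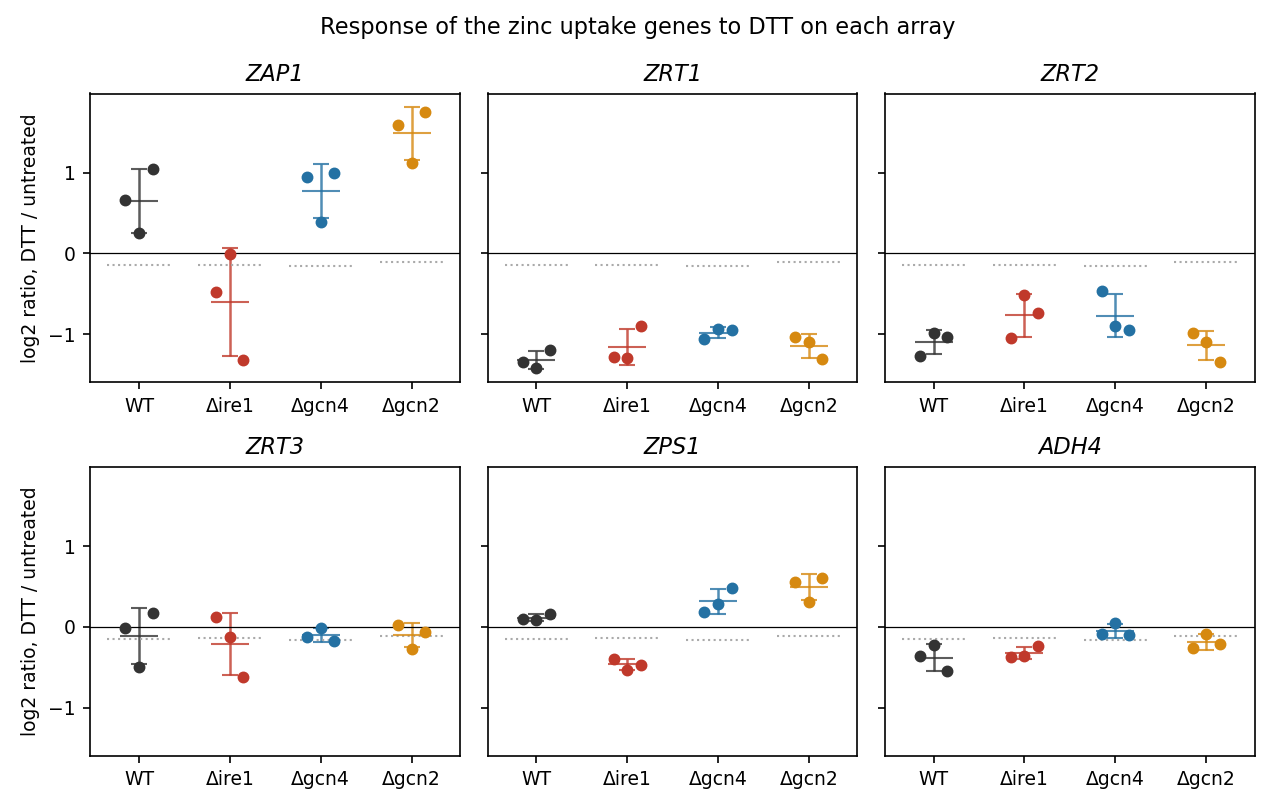
Log2 ratio (treated with DTT over untreated) of each member on each of the 12 arrays, with 1 panel per gene. Points are arrays in the order of their replicate numbers, bars are the mean ± SD of 3 arrays, and dotted grey lines are the median of all 6024 elements in that strain. All *ZRT1* and *ZRT2* points lie below 0, and the Δ*ire1* points of *ZAP1* and *ZPS1* lie below those of every other strain.

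*ZAP1*, the gene of the zinc-responsive activator, had log2 ratios of 0.664, 0.248, and 1.046 on the 3 arrays of WT. In Δ*ire1* they were −0.477, −0.004, and −1.317. The Δ*gcn4* arrays gave 0.944, 0.385, and 0.995, and the Δ*gcn2* arrays 1.589, 1.119, and 1.756. Each Δ*ire1* array was thus below each array of the other strains, each Δ*gcn2* array was above each array of the other strains, and WT and Δ*gcn4* overlapped.

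The mean for *ZAP1* was 0.65 ± 0.40 in WT (SD, n = 3 arrays; adjusted p = 0.0127 from limma). It was 0.77 ± 0.34 for Δ*gcn4* (adjusted p = 0.0046) and 1.49 ± 0.33 for Δ*gcn2* (adjusted p = 1.26e-05). These are rises of 1.57-fold, 1.71-fold, and 2.81-fold. The mean in Δ*ire1* was −0.60 ± 0.66 (adjusted p = 0.0244), a 1.52-fold fall. The fall in Δ*ire1* no longer passed the test with each array centered on its median (−0.46, adjusted p = 0.0646), without replicate 1 (adjusted p = 0.0575) or without replicate 3 (−0.24, adjusted p = 0.339), and the rise in WT no longer passed it without replicate 1 (adjusted p = 0.0527) or without replicate 3 (0.46, adjusted p = 0.133). *ZAP1* varied widely between arrays of the same strain, with a pooled SD of 0.454 that reached or exceeded that of 97.8% of all elements. The empirical Bayes fit draws such a variance toward those of other elements. Its standard error for the mean of *ZAP1*, 0.20 in each strain, is smaller than this pooled SD alone would give. The p-values and intervals for *ZAP1* from limma thus rest partly on the spread of other elements.

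The strain means of *ZPS1* had the same order as those of *ZAP1*, in a narrower range. That order is not particular to this pair. *ZRT3*, which passed the test in no strain, had it too, as did *ZRG17*, *COT1*, *YKE4*, and *TSA1*, among others. The share of all elements with this order was not determined. On the arrays of WT the log2 ratios of *ZPS1* were 0.095, 0.088, and 0.165, and on those of Δ*ire1* they were −0.391, −0.527, and −0.472. The Δ*gcn4* arrays gave 0.182, 0.286, and 0.487, and the Δ*gcn2* arrays 0.552, 0.308, and 0.610. The Δ*ire1* arrays lay apart from all others and every WT array lay below every array of Δ*gcn4* and Δ*gcn2*, while those 2 mutants overlapped.

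The mean for *ZPS1* was −0.46 ± 0.068 in Δ*ire1* (SD, n = 3 arrays; adjusted p = 7.76e-04 from limma), a 1.38-fold fall. In Δ*gcn2* it was 0.49 ± 0.16 (adjusted p = 2.73e-04), a 1.40-fold rise, and in Δ*gcn4* it was 0.32 ± 0.16 (adjusted p = 0.00871), a 1.25-fold rise that did not pass the test without replicate 3 of that strain (0.23, adjusted p = 0.11). In WT it was 0.12 ± 0.043 and did not pass the test (adjusted p = 0.301), but did when the arrays were centered on their medians (0.26, adjusted p = 0.0201). The pooled SD of *ZPS1*, 0.119, was at the percentile 8.2 of all elements, against 97.8 for *ZAP1*.

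Plotted against each other, the 2 genes separate the 3 arrays of Δ*ire1* from the other 9. Their correlation over the 12 arrays was 0.889, a value that includes this separation of the strains. For the deviations of the arrays from the means of their strains, the correlation between *ZAP1* and *ZPS1* was 0.325 over the 12 arrays, as a description.

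**Figure D2:**
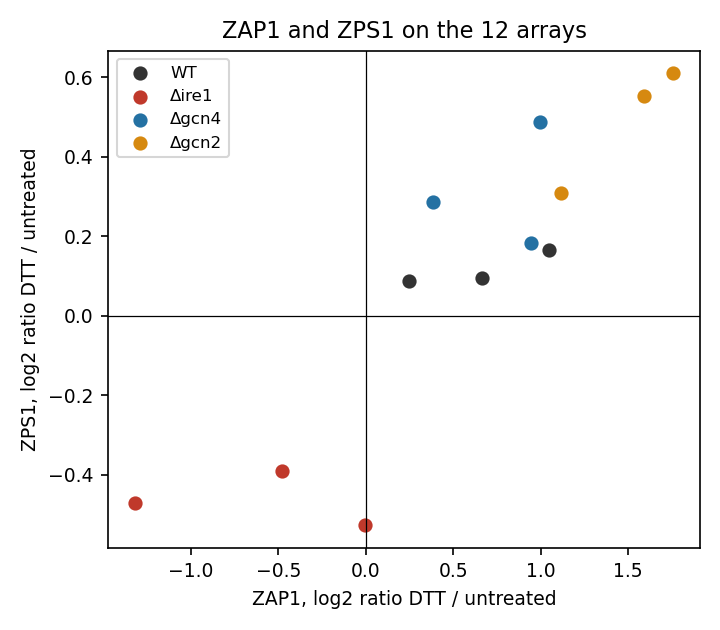
Log2 ratio of *ZPS1* (vertical axis) against that of *ZAP1* (horizontal axis), treated with DTT over untreated, with 1 point per array colored by strain. The 3 Δ*ire1* points lie at the lower left, between −1.317 and −0.004 for *ZAP1* and between −0.527 and −0.391 for *ZPS1*, and the other 9 points lie above 0 for both genes.

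The plasma membrane importers fell in every strain, also in those where *ZAP1* rose. *ZRT1*, for the high-affinity importer, had log2 ratios of −1.345, −1.416, and −1.197 for WT and −1.283, −1.296, and −0.897 for Δ*ire1*. The Δ*gcn4* arrays stood at −1.062, −0.934, and −0.946, and the Δ*gcn2* arrays at −1.029, −1.097, and −1.308. No array of any strain was above −0.897, and each Δ*gcn4* array was above each WT array, with overlap between the other pairs of strains.

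The mean for *ZRT1* was −1.32 ± 0.11 in WT (SD, n = 3 arrays; adjusted p = 4.68e-08 from limma), a 2.50-fold fall. It was −1.16 ± 0.23 for Δ*ire1* (adjusted p = 8.69e-07), −0.98 ± 0.071 for Δ*gcn4* (adjusted p = 1.28e-06), and −1.14 ± 0.15 for Δ*gcn2* (adjusted p = 1.65e-07), falls of 2.23-fold, 1.97-fold, and 2.21-fold. The share of all elements with a mean as low as that of *ZRT1* was 2.47% for WT, 1.44% for Δ*ire1*, 5.20% for Δ*gcn4*, and 4.40% for Δ*gcn2*.

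*ZRT2*, for the low-affinity importer, had log2 ratios of −1.265, −0.986, and −1.040 for WT and −1.049, −0.514, and −0.736 for Δ*ire1*. The Δ*gcn4* arrays stood at −0.459, −0.895, and −0.953, and the Δ*gcn2* arrays at −0.983, −1.091, and −1.343. Each array of Δ*gcn4* was above each array of WT and of Δ*gcn2*, and the other pairs of strains overlapped.

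The mean for *ZRT2* was −1.10 ± 0.15 in WT (SD, n = 3 arrays; adjusted p = 2.0e-06 from limma) and −1.14 ± 0.18 in Δ*gcn2* (adjusted p = 1.04e-06), falls of 2.14-fold and 2.20-fold. In Δ*ire1* it was −0.77 ± 0.27 (adjusted p = 1.19e-04) and in Δ*gcn4* −0.77 ± 0.27 (adjusted p = 8.07e-05), falls of 1.70-fold each. Both importer genes were thus lower in each of the 4 strains, as were 19.3% of all elements, 1160 of 6024.

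*ZRT3*, whose product moves zinc from the vacuole to the cytosol, did not pass the test in any strain (smallest adjusted p = 0.223, in Δ*ire1*). Its 12 log2 ratios ran from −0.624, on replicate 3 of Δ*ire1*, to 0.171, on replicate 3 of WT. The means were −0.11 ± 0.34 for WT (SD, n = 3 arrays), −0.21 ± 0.38 for Δ*ire1*, −0.10 ± 0.085 for Δ*gcn4*, and −0.10 ± 0.15 for Δ*gcn2*. These means spread over 0.11 on the log2 scale, less than the pooled SD of 0.269 between arrays of a strain.

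*ADH4* had log2 ratios of −0.365, −0.222, and −0.550 for WT and −0.370, −0.355, and −0.239 for Δ*ire1*. The Δ*gcn4* arrays stood at −0.092, 0.050, and −0.102, and the Δ*gcn2* arrays at −0.263, −0.081, and −0.217. Each Δ*gcn4* array was above each array of WT and Δ*ire1*, and Δ*gcn2* overlapped all 3 other strains.

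The mean for *ADH4* was −0.38 ± 0.16 in WT (SD, n = 3 arrays; adjusted p = 0.00227 from limma) and −0.32 ± 0.072 in Δ*ire1* (adjusted p = 0.00877), falls of 1.30-fold and 1.25-fold. It was −0.05 ± 0.085 in Δ*gcn4* (adjusted p = 0.68) and −0.19 ± 0.095 in Δ*gcn2* (adjusted p = 0.0849). With each array centered on its median, *ADH4* did not pass the test in WT (−0.23, adjusted p = 0.0583) or Δ*ire1* (−0.18, adjusted p = 0.156), and in Δ*ire1* it also did not without replicate 1 (adjusted p = 0.054).

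The question for the deletions is whether a strain answered DTT differently from WT. The 3 differences below use the same 3 WT arrays and are not independent of each other. In Δ*ire1*, *ZAP1* and *ZPS1* were lower than in WT, 2 of the 6 members, where 11.3% of all elements were lower. *ZAP1* differed by −1.25 (standard error 0.29, 95% confidence interval −1.87 to −0.64, adjusted p = 0.00649 from limma) and *ZPS1* by −0.58 (standard error 0.13, interval −0.86 to −0.30, adjusted p = 0.00581). Both differences passed the test in each of 11 alternative fits, with adjusted p up to 0.0312 and 0.0251.

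For the importers no difference of Δ*ire1* from WT passed the test. *ZRT1* differed by 0.16 (interval −0.14 to 0.46, adjusted p = 0.445), *ZRT2* by 0.33 (interval −0.036 to 0.70, adjusted p = 0.182), and *ADH4* by 0.06 (interval −0.22 to 0.33, adjusted p = 0.784). These intervals leave room for a difference of either sign, so equal responses are not shown.

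In Δ*gcn4*, 0 of the 6 members differed from WT in the limma fit, where 2.81% of all elements did in either direction. At an unadjusted p under 0.05 there were 2 members, a limit at which the share of all elements was not determined. These were *ZRT1*, with a difference of 0.34 (interval 0.037 to 0.64, adjusted p = 0.252), and *ADH4*, with 0.33 (interval 0.057 to 0.60, adjusted p = 0.209). For both genes, as for *ZRT2* (0.33, adjusted p = 0.375) and *ZPS1* (0.20, adjusted p = 0.496), the 3 Δ*gcn4* arrays did not overlap the 3 WT arrays. The share of all elements separated in this way was not determined, here or for the other pairs of strains. Such a separation is therefore only a description and adds nothing to the test. *ZAP1* differed by 0.12 (interval −0.49 to 0.74, adjusted p = 0.885).

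In Δ*gcn2*, 0 of the 6 members differed from WT in the limma fit without a replicate block. Of all elements, 17.1% did in either direction. At an unadjusted p under 0.05 there were 2 members, again without a share of all elements at that limit. *ZAP1* was at 0.84 above WT (interval 0.22 to 1.45, adjusted p = 0.058) and *ZPS1* at 0.37 above WT (interval 0.095 to 0.65, adjusted p = 0.0616), and for both genes the arrays of the 2 strains did not overlap. *ZRT1* (0.17, adjusted p = 0.424), *ADH4* (0.19, adjusted p = 0.323), and *ZRT2* (−0.04, adjusted p = 0.896) had overlapping arrays.

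Same-numbered arrays of WT and Δ*gcn2* deviated together over all elements, so the replicate numbers are taken to pair these strains. Within the pairs, *ZAP1* was higher in Δ*gcn2* by 0.925, 0.871, and 0.710, and *ZPS1* by 0.457, 0.220, and 0.445. With the replicate number as a block in the fit of all 12 arrays, *ZPS1* passed the test (adjusted p = 0.0488) and *ZAP1* did not. That block also pairs arrays of the other strains, where not every same-numbered pair had a correlation above 0.1. In a paired fit of the 6 arrays of WT and Δ*gcn2* both genes passed (adjusted p = 0.0012 for *ZPS1* and 5.31e-14 for *ZAP1*). That paired fit gave all elements 1 common variance and called 50.3% of them, so its small p for *ZAP1* does not reflect the spread of *ZAP1* itself.

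**Figure D3:**
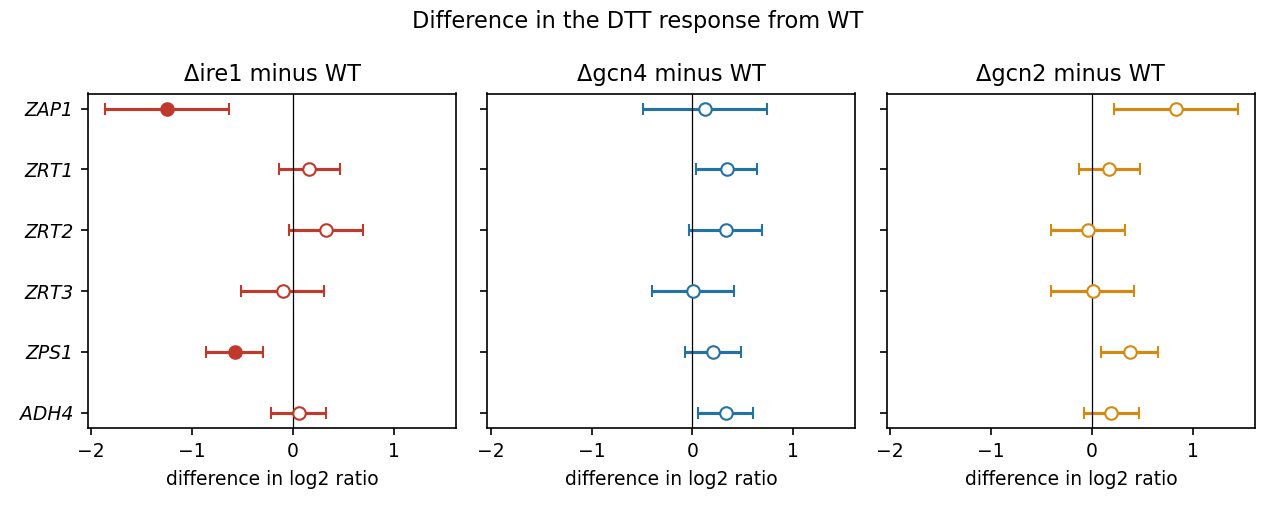
Difference in log2 ratio between each deletion strain and WT for each member, as point and 95% confidence interval from the fit of all 12 arrays. Filled points passed the test (*ZAP1* at −1.25 and *ZPS1* at −0.58 in Δ*ire1*), and open points did not.

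Between the mutants, *ZAP1* and *ZPS1* were again the members that separated Δ*ire1* from the rest. Against Δ*gcn4*, *ZAP1* was lower in Δ*ire1* by 1.37 on the log2 scale (difference −1.37, standard error 0.29, adjusted p = 0.00314 from limma) and *ZPS1* by 0.78 (difference −0.78, standard error 0.13, adjusted p = 7.05e-04), 2 of 6 members where 12.8% of all elements were lower. Against Δ*gcn2* the differences were −2.09 for *ZAP1* (adjusted p = 1.01e-04) and −0.95 for *ZPS1* (adjusted p = 9.91e-05), again 2 of 6 where 21.0% of all elements were lower. The spread of the 4 strain means was 2.09 for *ZAP1*, at the percentile 99.5 of all elements, and 0.95 for *ZPS1*, at the percentile 88.9. For *ZRT1*, *ZRT2*, and *ADH4* it was between 0.33 and 0.37, at percentiles of 25.5 to 32.1.

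Between Δ*gcn4* and Δ*gcn2*, 0 of the 6 members passed the test in the limma fit of all arrays, where 6.32% of all elements did in either direction. At an unadjusted p under 0.05 there were 2 members, with the share of all elements at that limit not determined. *ZAP1* was at −0.71 in Δ*gcn4* relative to Δ*gcn2* (adjusted p = 0.147), without overlap of the arrays, and passed the test when the fit held the arrays of these strains alone (adjusted p = 0.0435) or used array weights (adjusted p = 0.0419). *ZRT2* was at 0.37 (adjusted p = 0.206), also without overlap.

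*ADH4* and *ZRT1* are neighbors on chromosome VII, and the next genes beyond *ADH4* are *MNT2* and *VEL1*, both also known as Zap1p targets. Of these 4 consecutive genes only *ZRT1* fell in every strain. *MNT2*, for a Golgi mannosyltransferase, passed the test in no strain (means from −0.28 to 0.0043, smallest adjusted p = 0.079). *VEL1* was lower in Δ*gcn4* (−0.43 ± 0.12, SD, n = 3 arrays; adjusted p = 0.00424), a call lost with centered arrays (adjusted p = 0.0577), and in Δ*gcn2* (−0.40 ± 0.25, adjusted p = 0.00508). It stood at −0.23 ± 0.23 for WT and −0.09 ± 0.099 for Δ*ire1*.

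Of the wider Zap1p regulon, 20 further genes known to be activated by Zap1p were all measured. The numbers higher and lower were 4 and 7 for WT, 1 and 9 for Δ*ire1*, 3 and 8 for Δ*gcn4*, and 8 and 8 for Δ*gcn2*, shares to be read against those of all elements given above. Their medians were −0.17, −0.21, −0.16, and −0.16, close to the medians of all elements. With centered arrays they were 5 and 5 for WT, 1 and 6 for Δ*ire1*, 7 and 4 for Δ*gcn4*, and 8 and 6 for Δ*gcn2*.

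*ZRC1*, *PIS1*, *IZH1*, *IZH2*, and *RAD27*, 5 of the 20, were lower in all 4 strains, as were 19.3% of all elements, and with centered arrays *RAD27* was lower in Δ*gcn2* alone. *IZH1*, for a membrane protein of zinc homeostasis, had the lowest mean of the list, at −1.57 ± 0.14 for WT (SD, n = 3 arrays; adjusted p = 1.22e-08 from limma), −1.13 ± 0.17 for Δ*ire1*, −1.46 ± 0.15 for Δ*gcn4*, and −1.54 ± 0.16 for Δ*gcn2*. In Δ*ire1* it was less low than in WT, by 0.44 (adjusted p = 0.0399). *MCD4*, which encodes an enzyme of GPI anchor synthesis in the ER, had the highest. Its rise was 1.54 ± 0.21 for WT (adjusted p = 1.69e-08), 1.08 ± 0.15 for Δ*gcn4*, and 0.78 ± 0.016 for Δ*gcn2*, and it stood at −0.18 ± 0.21 in Δ*ire1* (adjusted p = 0.162). The difference of Δ*ire1* from WT was −1.73 (adjusted p = 2.3e-06).

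**Figure D4:**
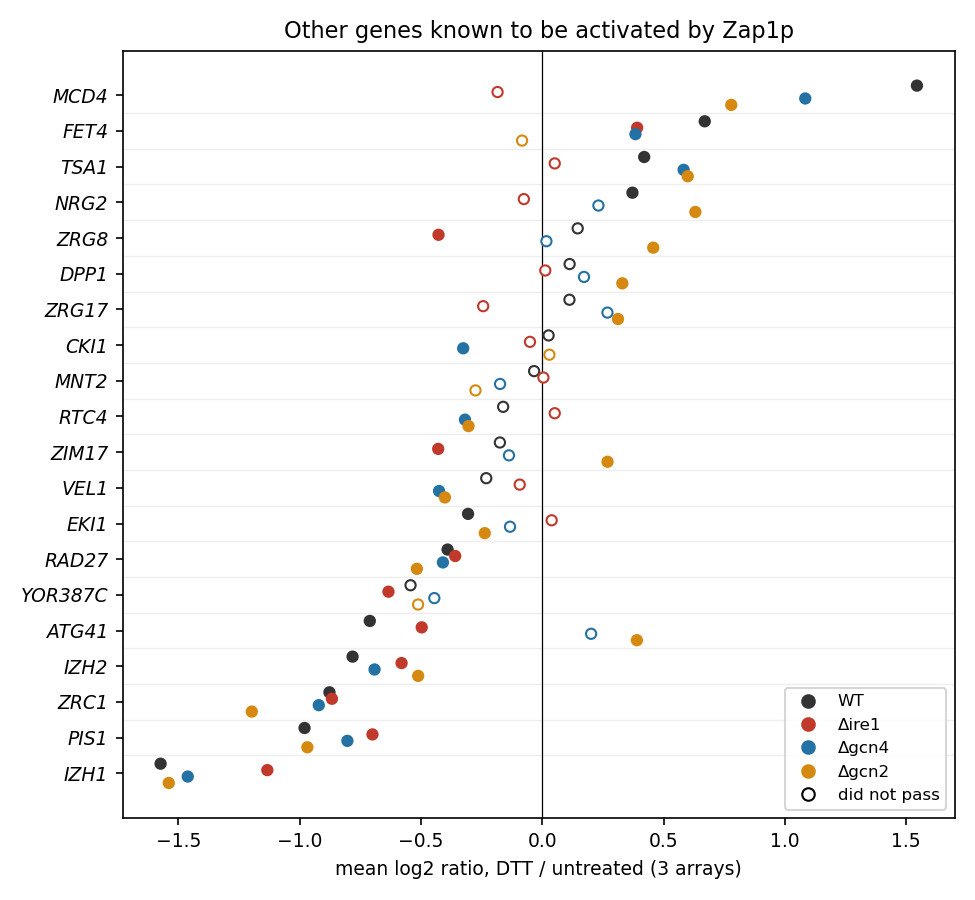
Mean log2 ratio (treated with DTT over untreated, 3 arrays per strain) for 20 further genes known to be activated by Zap1p, ordered by their mean in WT. Filled points passed the test against no change in that strain and open points did not. The genes run from *IZH1*, at −1.57 in WT, to *MCD4*, at 1.54 for WT and −0.18 for Δ*ire1*.

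Besides the members, 7 genes of zinc transport were measured, 3 of which are also on the list of Zap1p targets. The numbers higher and lower were 2 and 2 for WT, 2 and 2 for Δ*ire1*, 3 and 2 for Δ*gcn4* (5 and 2 with centered arrays), and 4 and 2 for Δ*gcn2*, where the shares of all elements are again those given above. *ZRC1*, whose product carries zinc into the vacuole, stood at −0.88 ± 0.14 for WT (SD, n = 3 arrays; adjusted p = 3.23e-06 from limma), −0.87 ± 0.16 for Δ*ire1*, −0.92 ± 0.16 for Δ*gcn4*, and −1.20 ± 0.16 for Δ*gcn2*, and fell in each strain. *PHO84*, for a phosphate transporter that can also carry zinc, also fell in each, with −1.38 ± 0.15 for WT, −0.86 ± 0.14 for Δ*ire1*, −1.18 ± 0.38 for Δ*gcn4*, and −1.99 ± 0.13 for Δ*gcn2*. With *ZRT1* and *ZRT2*, 4 of the 10 genes of zinc transport measured were lower after DTT in all strains, beside the 19.3% of all elements.

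*FET4*, for a low-affinity iron transporter that also takes up zinc, went the other way in 3 strains. It was higher at 0.67 ± 0.16 for WT (SD, n = 3 arrays; adjusted p = 6.65e-04 from limma), 0.39 ± 0.48 for Δ*ire1* (adjusted p = 0.0288), and 0.38 ± 0.072 for Δ*gcn4* (adjusted p = 0.0274), and stood at −0.08 ± 0.19 for Δ*gcn2*. In Δ*gcn2* it was lower than in WT, by −0.75 (adjusted p = 0.0173). *MSC2*, which encodes a subunit of a zinc transporter of the ER, rose in all 4 strains, by 0.33 ± 0.17 in Δ*gcn2* to 0.47 ± 0.092 in WT, as did 4.32% of all elements. *ZRG17*, for its partner subunit, was higher in Δ*gcn2* (0.31 ± 0.18, adjusted p = 0.0387) and stood at 0.11 ± 0.15 for WT, −0.24 ± 0.10 for Δ*ire1*, and 0.27 ± 0.39 for Δ*gcn4*, where it passed the test with centered arrays (adjusted p = 0.00579).

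Zap1p also lowers transcription of 2 alcohol dehydrogenase genes, *ADH1* and *ADH3*, during zinc shortage. *ADH1*, for the main fermentative enzyme, was lower in Δ*gcn2* (−0.52 ± 0.16, SD, n = 3 arrays; adjusted p = 0.00797 from limma) and in WT (−0.38 ± 0.086, adjusted p = 0.0479), the latter call lost with centered arrays (adjusted p = 0.217). It stood at −0.31 ± 0.52 for Δ*ire1* and 0.07 ± 0.33 for Δ*gcn4*. *ADH3*, for the mitochondrial enzyme, was lower in Δ*ire1* (−0.46 ± 0.28, adjusted p = 0.00282), and stood at −0.06 ± 0.11 for WT, 0.19 ± 0.087 for Δ*gcn4*, and −0.14 ± 0.19 for Δ*gcn2*. With centered arrays it was higher in Δ*gcn4* (adjusted p = 0.0147).

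The elements most like each member were found by Pearson correlation of the log2 ratios over the 12 arrays, in which differences between strains and shared deviations of single arrays both count. For *ZAP1* they were *GAL4*, the activator of galactose genes (r = 0.976, and 0.952 for deviations from strain means), *COS1* (0.961 and 0.820), and *BIR1* (0.956 and 0.883). For *ZPS1* they were *RMR1* (0.985 and 0.782), *NBP1* (0.984 and 0.781), and *GAL83*, a subunit of the Snf1p kinase (0.966 and 0.534). The members were left out of this search. *ZAP1* with *ZPS1* had lower values than these genes, 0.889 over the 12 arrays and 0.325 for deviations from strain means.

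For *ZRT1* the most alike were *LCB3* (0.897), *DIA4* (0.886), and *PET9*, the mitochondrial ADP/ATP carrier (0.861). For *ZRT2* they were the ribosomal protein genes *RPL43B* (0.857), *RPL8B* (0.828), and *RPL20B* (0.824). For *ADH4* they were *RRP40* of the exosome (0.930), *PUP1* of the proteasome (0.913), and *RPS0B* of the small ribosomal subunit (0.905), and for *ZRT3*, with no response to speak of, *YDL218W* (0.866), *RRP43* (0.836), and *HFL1* (0.819). These are the highest values among all elements with a gene symbol, over 12 arrays, and carry no test. Among the 15 pairs of members, the correlation of the deviations from strain means ran from −0.821, for *ZAP1* with *ADH4*, to 0.697, for *ZRT3* with *ZAP1*.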

How the data were processed

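mRNA of the 4 strains was compared on two-color spotted arrays, and the authors deposited log2 ratios, treated over untreated, with 3 decimals for 6024 elements on 12 arrays. The normalization within arrays is not given in the sources used here, the values were used without further centering, and signals of the channels were not analysed here, so the number of arrays limits the precision. Of the elements, 5432 carried 1 gene symbol in the platform annotation and 592 none. Names and neighbors came from RefSeq R64.

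Strain means were fitted to all 12 arrays with limma 3.58.1 in R 4.3.3 (empirical Bayes variances, 15.5 degrees of freedom), with Benjamini-Hochberg adjustment over all elements and a threshold of 0.05. Strain means were tested against 0, as were the 6 differences between strains. The fit was checked on artificial arrays with independent noise and few shifted elements. That check does not cover deviations shared between arrays. WT replicate 1 carries no number in its label and was numbered by elimination. Same-numbered arrays of WT and Δ*gcn2* deviated together (r of 0.574, 0.625, and 0.661 for the pairs, and −0.198 or lower for arrays of different number), and in no other 2 strains did every pair pass the limit of 0.1 (WT with Δ*gcn4* and Δ*gcn4* with Δ*gcn2* had all 3 above 0, the lowest at 0.0823 and 0.0787).

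Named were the 6 members, other list genes that passed the test with a mean of at least 1 on the log2 scale in a strain, some zinc genes listed by name, and the 3 elements most like each member. The members, lists, and tests were chosen with earlier results of these data known. Alternatives were centering, scaling, array weights, the replicate block, smaller fits, and leaving out each array. Centered counts over all elements and over the further lists were added after the data had been seen.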

Additional observations from a re-analysis of the deposited data

Results flagged for a closer look

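Among the members, the differences between strains that passed the test in the fit of all 12 arrays without a replicate block concern *ZAP1* and *ZPS1* in Δ*ire1*. They share the 3 arrays of that strain, so they are not separate results. On the log2 scale, *ZAP1* differed by −1.25 from WT, −1.37 from Δ*gcn4*, and −2.09 from Δ*gcn2*, and *ZPS1* by −0.58, −0.78, and −0.95. For both genes, all 3 Δ*ire1* arrays lay below all 9 others. The Δ*ire1* arrays of *ZAP1* themselves ranged from −1.317 to −0.004, so the size of its differences depends on which of them is left out (−1.55 to −0.89 against WT).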

How the results depend on the processing

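Of 428 alternative values for 45 results of members, 386 kept direction and side of the threshold, 13 lost the call, 13 gained it, and 16 changed sign. Each change of sign was in a value that did not pass the test in either fit. With centered arrays, *ZRT3* stood at 0.037 for WT, 0.057 for Δ*gcn4*, and 0.0022 for Δ*gcn2*, and *ADH4* at 0.11 for Δ*gcn4*. With arrays also scaled to one spread, these were 0.033, 0.067, 0.0057, and 0.13, *ZRT1* differed from WT by −0.018 in Δ*ire1*, and *ZRT2* by 0.057 in Δ*gcn2* (0.020 with array weights). With 1 array left out in turn, *ZRT3* in WT ranged from −0.25 to 0.0815, and the differences from WT ranged from −0.028 to 0.14 for *ADH4* in Δ*ire1*, −0.0803 to 0.32 for *ZAP1* in Δ*gcn4*, and −0.13 to 0.06 for *ZRT2* in Δ*gcn2*.

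The number of members called in Δ*ire1*, 5, was 3 with centered arrays and 3 to 5 with 1 array left out, 3 without replicate 1 of Δ*ire1*. *ZAP1* in Δ*ire1* also lost its call with array weights (adjusted p = 0.128) and with the arrays of that strain alone (adjusted p = 0.0609). For Δ*gcn2* against WT the number, 0, was 2 with array weights, 1 with the replicate block, 1 with the arrays of both strains alone, 2 with those arrays and the replicate block, and 0 to 1 with 1 array left out, 1 without replicate 3 of WT. For Δ*gcn4* against Δ*gcn2* it was 1 with array weights and 1 with the arrays of both strains alone, against 0. The replicate block changed no other call of a reported member value. The cause of these changes was not tested. Against Δ*gcn2*, *ZRT2* in Δ*ire1* passed the test only without replicate 1 of Δ*ire1* (0.51, adjusted p = 0.0447).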

Other observations

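Enzymes that use zinc, and the other alcohol dehydrogenases, were also measured. Among 5 zinc-requiring enzymes besides alcohol dehydrogenases, the numbers higher and lower were 1 and 3 for WT, 2 and 3 for Δ*ire1*, 1 and 3 for Δ*gcn4*, and 2 and 3 for Δ*gcn2*, beside 18.4% and 39.0%, 12.2% and 35.6%, 15.8% and 38.7%, and 25.2% and 37.8% of all elements. With centered arrays the numbers for Δ*gcn4* were 2 and 2, as *NCE103*, for carbonic anhydrase, passed the test (adjusted p = 0.0466) and *FBA1* did not. *MET6*, *SOD1*, and *FBA1* were lower in all 4 strains, as were 19.3% of all elements. *APE1* was higher in all 4, as were 4.32% of all elements. *MET6*, for methionine synthase, stood at −2.52 ± 0.29 for WT (SD, n = 3 arrays), −2.58 ± 0.51 for Δ*gcn4*, −1.99 ± 0.29 for Δ*gcn2*, and −0.98 ± 0.27 for Δ*ire1*, and the difference of Δ*ire1* from WT was 1.54 (adjusted p = 4.06e-04 from limma). *APE1*, for a vacuolar aminopeptidase, stood at 1.38 ± 0.23 for WT, 0.83 ± 0.50 for Δ*ire1*, 1.19 ± 0.17 for Δ*gcn4*, and 1.90 ± 0.059 for Δ*gcn2*.

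The other alcohol dehydrogenase genes numbered 7, with *ADH1* and *ADH3* among them. The numbers higher and lower were 2 and 3 for WT, 0 and 2 for Δ*ire1*, 1 and 2 for Δ*gcn4*, and 1 and 2 for Δ*gcn2*. With centered arrays these were 3 and 1, 0 and 1, 3 and 1, and 2 and 2. Both sets of counts are to be read against the shares of all elements given above, without and with centering. *ADH5* was higher at 0.63 ± 0.25 for WT (SD, n = 3 arrays), 1.03 ± 0.067 for Δ*gcn4*, and 0.48 ± 0.079 for Δ*gcn2*. It stood at 0.09 ± 0.025 for Δ*ire1*, with a difference of −0.54 from WT (adjusted p = 0.011 from limma).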
